A study of Mus musculus with 24 samples.

Results

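Whole brain was compared between congenic and B6 mice, with 3 congenic and 3 B6 samples chosen by their titles out of 24 samples. The other 18 samples came from liver, gastrocnemius muscle and the epididymal white fat pad of the same genotypes. B6 is the C57BL/6 inbred strain. The congenic mice belong to the strain B6.S-2, which carries a stretch of chromosome 2 from SPRET/Ei, an inbred strain of Mus spretus, on the B6 background. Both groups therefore share the B6 background outside that stretch, and the labels give neither its ends nor whether each animal carried 1 or both donor copies. Age is not given, and diet and sex are tied to no sample: the growth protocol speaks of F2 mice, of chow and of a high fat diet for some male congenic mice. The treatment field calls the B6 samples congenic too, so the genotype rests on the titles.

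A congenic strain isolates the effect of 1 chromosome segment, so genes inside the segment can differ through their own sequence, while genes outside it have the B6 sequence in both groups. An array probe is a short DNA strand that binds a matching RNA, and its brightness reflects both the amount of RNA and how well the 2 strands pair. Mus spretus and B6 differ in sequence at many bases, so in such mice a difference at 1 exon can come from the RNA level, from exon choice or from a mismatch under the probe, and these cannot be told apart from brightness alone. Whole brain mixes neurons, glia and vessel cells, and fewer cells of a type and less RNA per cell cannot be told apart in it.

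The custom array read exons of 341 genes. Of these, 333 lay on chromosome 2, between bases 121896708 and 167412296, and 8 lay elsewhere. Coordinates are those of the array files, whose genome build is not given in the sources used here. Distinct exon coordinates within a gene are called features here, and there were 3099. Levels are log2 values after background correction and quantile normalization. Differences are congenic minus B6 on that log2 scale with the limma standard error (SE) and 3 arrays in each group. The threshold was a Benjamini-Hochberg adjusted p under 0.05 over all genes or all features.

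The brain arrays were dim and unequal. Median raw intensity was 377 to 470 in B6 brain and 298 to 1237 in congenic brain, with replicate 2 the brightest. Of the 6 wells, row A of the slide held 2 congenic arrays, row B held 1 B6 array, and row C held 2 B6 arrays and 1 congenic array. Gene levels correlated at 0.942 to 0.981 between pairs of brain arrays, across genes, and pairs of 1 genotype (0.949 to 0.981) did not stand apart from mixed pairs (0.942 to 0.975). The tissue label was borne out by the neuronal markers: 10 of 14 neuronal and synaptic genes had their highest mean level in brain. The 4 hepatocyte genes, the 3 skeletal muscle genes and the 6 adipocyte genes had theirs in other tissues. Of the 3 astroglia and oligodendrocyte genes, 1 was highest in brain, and of the 4 microglia and immune genes, 0. Of the lists of cell types other than neurons, 1 had mean levels that separated the genotypes, the microglia and immune list. It was at 9.06 to 9.18 in B6 and 9.21 to 9.28 in congenic brain, and its part in the results below was not tested. Among single genes, 6.74% had all congenic values above all B6 values. The other lists of cell types overlapped. Mean levels of the hepatocyte list were 9.39 to 9.51 in B6 and 9.39 to 9.56 in congenic brain, and those of the endothelial list were 9.40 to 9.46 and 9.35 to 9.47.

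At the level of single exons, 3 of 3099 features passed the threshold (0.0968% of those tested), 2 exons of Csnk2a1 that were higher in congenic brain and 1 of Eif2s2 that was lower. At an unadjusted p under 0.05 there were 164 features (5.29%), 85 higher (2.74%) and 79 lower (2.55%). No gene summary passed, 0 of 341 (0% called), with 18 at an unadjusted p under 0.05 (5.28%), 11 higher (3.23%) and 7 lower (2.05%).

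Csnk2a1 encodes the catalytic alpha subunit of casein kinase 2, a serine and threonine kinase present in most cells and active on many substrates. The array held 15 of its features, spanning bases 152290224 to 152342433 on the plus strand. The exon at bases 152326531 to 152326642 (112 bases, 6 probes) read 7.01, 6.81 and 7.36 in the B6 brains and 9.77, 10.32 and 10.18 in the congenic brains. All congenic brains were far above all B6 brains. The difference was 3.03 (SE 0.21, 95% interval 2.56 to 3.50), with a limma adjusted p of 2.8e-04. The exon at bases 152322024 to 152322084 (61 bases, 6 probes) read 7.08, 6.52 and 6.93 in B6 and 9.26, 10.04 and 10.41 in congenic brain. Its difference was 3.06 (SE 0.29, 95% interval 2.42 to 3.70), with a limma adjusted p of 0.0021.

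In B6 brain both exons lay near the bottom of the array, at the 1.48 to 6.62 percentile of all features for the 61-base exon and at 4.10 to 8.81 for the 112-base exon. The size of the difference moved with the background correction, from 2.08 without it to 3.59 at a normexp offset of 16 for the 61-base exon and from 2.06 to 3.49 for the 112-base exon, past the threshold each time. In congenic brain they lay at 47.3 to 78.8 and at 61.8 to 76.5. The same exons were dim in the other tissues of both genotypes. The highest of those 18 arrays read 7.22 for the 61-base exon and 8.49 for the 112-base exon, the latter in B6 liver replicate 2, so every congenic brain array was above every other array of the study at both. Genotype differences were 0.23 in liver, 0.41 in adipose tissue and 0.14 in muscle for the 61-base exon, and -0.21, 0.36 and 0.16 for the 112-base exon. The brain difference exceeded the mean of those in the other tissues by 2.80 (limma adjusted p = 4.4e-07) and by 2.93 (limma adjusted p = 4.4e-05).

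The rest of Csnk2a1 differed far less. The 13 other features had differences from -0.22 to 0.76 with a median of 0.14. Of these, 2 had all congenic brains above all B6 brains, the exon at bases 152320726 to 152320828 with a difference of 0.71 (SE 0.16) and the exon at bases 152324107 to 152324191 with a difference of 0.76 (SE 0.23). The second of these lies between the 2 exons and the first just upstream of them, and neither passed the threshold (limma adjusted p of 0.392 and 0.784). By comparison, 6.03% of all features had all congenic values above all B6 values. The brightest feature of the gene lies between the first of these and the 61-base exon, at bases 152321289 to 152321340, which read 12.87, 13.17 and 12.51 in B6 and 13.07, 12.81 and 12.85 in congenic brain, a difference of 0.06 (SE 0.20). The gene summary was 8.78, 8.65 and 8.93 in B6 and 8.77, 9.05 and 9.13 in congenic brain, groups that overlap, with a difference of 0.20 (SE 0.12, limma adjusted p = 0.848).

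**Figure D1:**
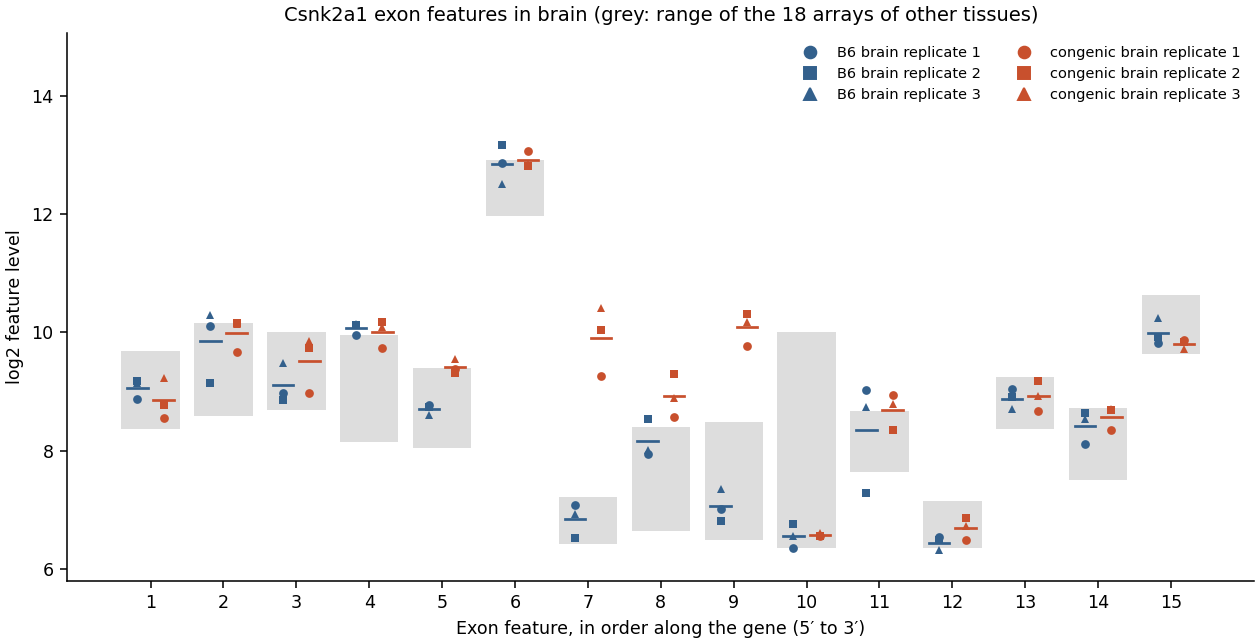
Levels (log2) of the 15 exon features of Csnk2a1 in order along the gene, in 3 B6 (blue) and 3 congenic (orange) brain arrays; short lines are group means and grey boxes span the 18 arrays of other tissues. Congenic brain stands about 3 log2 units above B6 brain and above the grey boxes at features 7 and 9, while feature 6 is alike in both.

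The differences at the 2 exons were not those of a single probe. In the authors' deposited value table, all 6 probes of each exon had the 3 congenic brains above the 3 B6 brains. This held for 5.49% of the probes assigned to exons, but the 2 exons were picked for their differences in these arrays. Probe differences ran from 2.70 to 4.46 for the 61-base exon and from 2.68 to 3.96 for the 112-base exon. The exons are listed under 2 transcripts with the same coordinates, and each transcript's row alone passed at both. These rows and probes read the same exons on the same 6 arrays, so they are not replicates. In well row C, which held 2 B6 arrays and 1 congenic array, the differences were 2.47 and 2.86. Leaving out each brain array in turn left them between 2.81 and 3.38 and between 2.90 and 3.19, all past the threshold.

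Eif2s2 encodes the beta subunit of eIF2, the factor that brings the initiator tRNA to the ribosome. Its feature at bases 154951685 to 154951709 on the minus strand (25 bases, 2 probes) read 10.34, 9.38 and 10.41 in B6 brain and 6.49, 7.32 and 7.63 in congenic brain, without overlap. It fell by 2.89 on the log2 scale (SE 0.34, limma adjusted p = 0.0111). The congenic values lay at the 1.11 to 12.2 percentile of all features, and the difference was -2.02 without background correction and -3.34 at a normexp offset of 16. Without B6 replicate 1 the difference was -2.74 with a limma adjusted p of 0.089. In the authors' deposited value table, both probes had all congenic brains below all B6 brains, as had 5.32% of the probes assigned to exons. This feature too was picked for its difference in these arrays, and its 2 probes are not replicates. Unlike the Csnk2a1 exons, this feature was lower in congenic than in B6 arrays in every tissue, with differences of -2.56 in liver, -2.46 in adipose tissue and -2.17 in muscle. The brain difference was 0.49 below their mean, with a limma adjusted p of 0.845. Congenic muscle was not dim at this feature, at 9.90, 10.20 and 10.22.

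The 25 bases share their last coordinate with a longer feature, bases 154951531 to 154951709 (179 bases), whose own probes gave no such difference. It read 9.41, 8.75 and 10.09 in B6 and 9.13, 9.62 and 9.69 in congenic brain, a difference of 0.07 (SE 0.31). The next feature, at bases 154951052 to 154951156, had a difference of -1.25 (SE 0.44, limma adjusted p = 0.862) and its groups overlapped. Of the 13 Eif2s2 features, the 25-base feature included, 9 had lower and 4 higher congenic means. At 5, all congenic brains lay below all B6 brains (5.2% of all features do). At an unadjusted p under 0.05, 4 were lower (2.55% of all features were). The feature at bases 154934927 to 154935517 differed by -0.64 (SE 0.16, limma adjusted p = 0.516), without overlap. It differed by -0.08 in liver, -0.68 in adipose tissue and -1.14 in muscle. The gene summary differed by -0.21 (SE 0.12, limma adjusted p = 0.841). Whether a base difference lies under the 2 probes was not tested, since no probe sequence was used here.

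**Figure D2:**
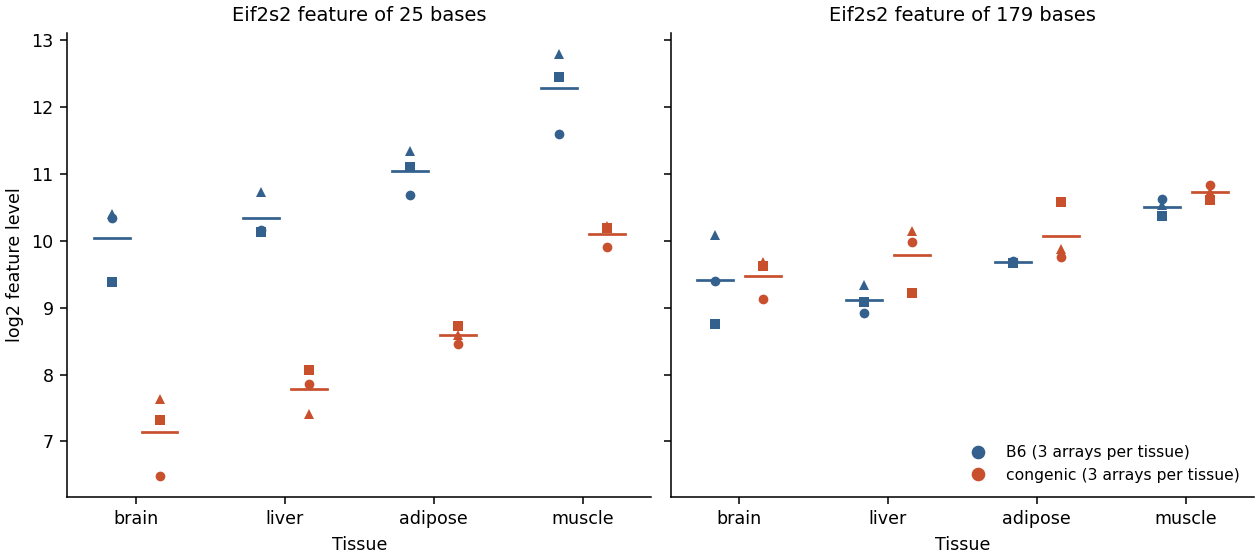
Levels (log2) of the 25-base Eif2s2 feature (left) and of the 179-base feature that contains it (right), per array in the 4 tissues, with B6 in blue, congenic in orange and lines at the means of 3 arrays. The short feature is lower in congenic arrays of all 4 tissues (differences of -2.17 to -2.89), whereas the long one differs by 0.07 in brain.

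Among gene summaries, the lowest congenic values relative to B6 included a pair of genes with high levels in brain. Napb encodes beta-SNAP, a mainly neuronal adaptor that with NSF takes SNARE complexes apart after vesicle fusion. Its gene level was 9.94, 9.86 and 10.50 in B6 and 9.31, 9.78 and 9.59 in congenic brain. The groups were separate by a narrow margin, between B6 replicate 2 and congenic replicate 2. The difference was -0.54 (SE 0.18, 95% interval -0.95 to -0.13), with a limma adjusted p of 0.468. In the fit of all 24 arrays, which shares 1 spread over all tissues, the limma adjusted p was 0.0497. Without B6 replicate 3 the difference was -0.34, and 0.211 was then the limma adjusted p of the 24-array fit.

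The Napb features gave a graded picture. Of 15, 13 had lower means in congenic brain, and 6 had all congenic brains below all B6 brains (5.2% of all features do). At an unadjusted p under 0.05, 7 were lower (2.55% of all features were). The brightest, at bases 148447336 to 148447569 near the 3' end, read 12.20, 11.90 and 12.44 in B6 and 10.64, 11.14 and 10.95 in congenic brain. Every congenic array lay well under the lowest B6 array there. Its difference was -1.27 (SE 0.20), with a limma adjusted p of 0.085 over the 6 brain arrays and 0.0043 in the 24-array fit. Its 3 probes were unequal in the authors' deposited value table, with differences from -3.10 to -0.16. Of these, 2 had all congenic brains below all B6 brains. The exon at bases 148459717 to 148459764 read 10.71, 10.04 and 10.53 in B6 and 9.26, 9.62 and 9.62 in congenic brain, a difference of -0.92 (SE 0.21) with a limma adjusted p of 0.436, and of 0.0496 in the 24-array fit. In contrast, the first feature differed by -0.03 (SE 0.21), and 3 neighbours close to the brightest one by -0.82, -0.06 and 0.12. In the other tissues Napb was at 8.05 to 8.60, and its differences were -0.09 in liver, 0.05 in adipose tissue and -0.10 in muscle. The brightest feature, however, was lower in congenic muscle as well, at 8.90 against 9.93 (-1.03), with differences of -0.17 in liver and 0.17 in adipose tissue. The gene's brain difference was not shown to differ from those elsewhere (-0.49, limma adjusted p = 0.249).

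**Figure D3:**
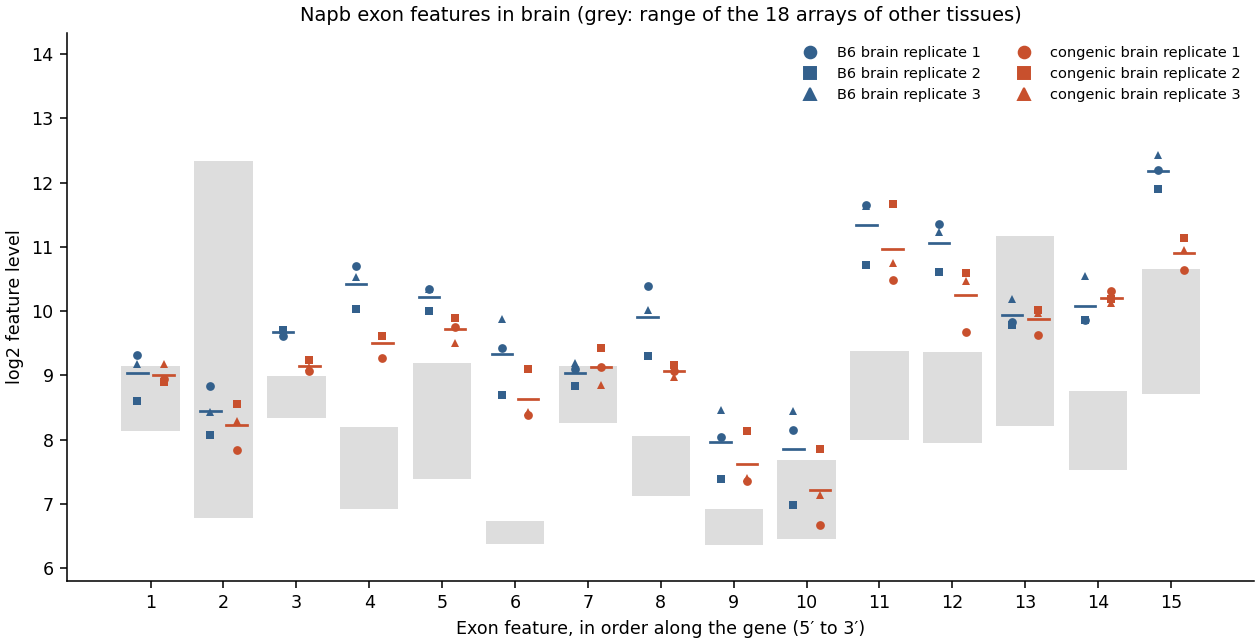
Levels (log2) of the 15 exon features of Napb from 5' to 3', in 3 B6 (blue) and 3 congenic (orange) brain arrays; short lines are group means and grey boxes span the 18 arrays of other tissues. Congenic means are lower at 13 features, with a difference of -1.27 at feature 15, and B6 replicate 2 sits among the congenic arrays at several features.

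Snhg11 is a long noncoding RNA that hosts small nucleolar RNAs in its introns and is abundant in neurons. It read 11.60, 10.89 and 11.27 in B6 and 10.65, 10.88 and 10.45 in congenic brain, so that B6 replicate 2 and congenic replicate 2 were almost equal. The difference was -0.59 (SE 0.18), with a limma adjusted p of 0.412, and of 0.0375 in the 24-array fit. All 5 features had lower congenic means, from -0.10 at the first to -0.70 (SE 0.22) at bases 158439429 to 158439675. In the authors' deposited value table, the 3 probes of the latter differed by -1.94 to 0.32, with 1 higher in congenic brain. The gene's other-tissue differences were 0.01 to 0.03. AK016198, a transcript with no gene symbol in the annotation used, read 10.18, 9.93 and 10.14 in B6 and 9.77, 9.47 and 9.46 in congenic brain. Its difference was -0.51 (SE 0.11), and 0.412 and 0.0375 were the limma adjusted p of the 6-array and 24-array fits. These 3 genes were all that passed in the 24-array fit (0.88% of genes, with 10.6% at an unadjusted p under 0.05). Leaving out single brain arrays left 0 to 3 genes past its threshold, not always the same ones. Without B6 replicate 1, Napb, Snhg11 and AK016198 did not pass in that fit (limma adjusted p of 0.054, 0.216 and 0.193). Ppia, described below, did pass there, with a difference of 0.97 (limma adjusted p = 0.0156). Within well row C the differences were -0.59 for Napb, -0.60 for Snhg11 and -0.28 for AK016198.

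The other neuronal genes did not share this size of difference. Of 14 measured genes on the neuronal and synaptic list, 9 had lower and 5 higher congenic means, with a median of -0.06, Napb and Snhg11 included, beside 0.002 over all 341 genes. Slc32a1, the vesicular transporter of the inhibitory transmitters GABA and glycine, read 10.24, 10.26 and 10.27 in B6 and 10.05, 10.01 and 10.20 in congenic brain. Its difference was -0.17 (SE 0.08, limma adjusted p = 0.791). Dlgap4, a postsynaptic scaffold protein, had a difference of 0.13 (SE 0.07), and Slc12a5, the neuronal potassium and chloride cotransporter KCC2, one of -0.10 (SE 0.08). Snph, the mitochondrial anchor syntaphilin, differed by -0.03 (SE 0.08) and Nnat, an imprinted neuronal proteolipid, by 0.03 (SE 0.18). The mean level of the list was 9.92 to 10.04 in B6 and 9.87 to 9.93 in congenic brain, ranges that overlap. Its 178 features held 12 with lower and 2 with higher congenic means at an unadjusted p under 0.05. Over all features, 2.55% were lower and 2.74% higher at that p. Of the 12, 7 belonged to Napb and 1 to Snhg11, genes named for their small p in these same arrays.

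Glial and immune genes were measured sparsely. Sdc4, the heparan sulfate proteoglycan syndecan-4 and here a member of the astroglial list, read 10.05, 9.82 and 9.89 in B6 and 10.29, 10.17 and 10.32 in congenic brain. The groups did not overlap, and the difference was 0.34 (SE 0.09, limma adjusted p = 0.412). The other astroglial genes measured were Cst3, cystatin C, at -0.10 and Nkx2-2, an oligodendrocyte lineage factor, at -0.15. B2m, the light chain of MHC class I, read 10.26, 9.70 and 10.24 in B6 and 10.32, 10.66 and 10.37 in congenic brain, a difference of 0.38 (SE 0.16, limma adjusted p = 0.791). The 4 immune genes all had higher congenic means, with a median of 0.06, and the other 3 differed by 0.03 to 0.08. The list's mean level was 9.06 to 9.18 in B6 and 9.21 to 9.28 in congenic brain, without overlap. B2m had by far the largest difference of the 4. Among single genes, 6.74% had all congenic values above all B6 values, and the list mean was not tested.

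Of the 10 genes with the smallest p in each direction, none passed the threshold over the 6 arrays. Ppia, cyclophilin A, lies off chromosome 2 and is often used as a reference gene. It read 13.57, 12.53 and 13.18 in B6 and 13.87, 13.87 and 13.76 in congenic brain, a difference of 0.74 (SE 0.22, limma adjusted p = 0.412). It sits at the top of the array's range, where the B6 arrays had raw maxima of 3004 to 9358 and the congenic arrays of 3140 to 25848, and the part of that range in the difference was not tested. Without B6 replicate 2 the difference was 0.46, and within well row C, with 1 congenic array, it was 0.82. The other reference genes differed by 0.33 for Hprt (SE 0.30), 0.15 for Rplp0 (SE 0.19), -0.02 for Gusb (SE 0.13) and 0.001 for Tbp (SE 0.09).

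Sec23b, a COPII coat protein of transport from the endoplasmic reticulum, read 9.50, 9.43 and 9.65 in B6 and 9.67, 9.83 and 9.73 in congenic brain. Its difference was 0.22 (SE 0.09, limma adjusted p = 0.791). Of its 22 features, 19 had higher congenic means. These features were read on the same arrays, and the gene was picked for its small p there. Romo1, a small protein of the inner mitochondrial membrane, differed by 0.30 (SE 0.09), with 10.58, 10.45 and 10.67 in B6 and 10.76, 10.95 and 10.89 in congenic brain. Slc2a10, the facilitative glucose transporter GLUT10, differed by 0.30 (SE 0.09) and Zfp937, a zinc finger protein, by 0.32 (SE 0.10), both without overlap. AK045769 and M10062, both without a symbol, differed by 0.35 (SE 0.09) and 0.45 (SE 0.16).

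Lower means included genes known from the epididymis and testis, a list with mean levels of 8.82 to 8.92 in B6 and 8.81 to 8.92 in congenic brain. The defensin genes Defb22 and Defb29 differed by -0.32 (SE 0.10) and -0.21 (SE 0.09), and Cst13, a cystatin, by -0.38 (SE 0.13). Cst12, from the same cystatin family, differed by 0.23 (SE 0.07) in the opposite direction. The 22 measured genes of that list were split at 11 higher and 11 lower. Cst13 changed sign under other summaries, to 0.14 as the mean of its features and to 0.71 when the dimmest 25% of features were left out. Banf2, a relative of the chromatin protein Baf, differed by -0.25 (SE 0.09), 6820408C15Rik by -0.18 (SE 0.08) and Tspyl3, of the nucleosome assembly protein family, by -0.27 (SE 0.12).

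**Figure D4:**
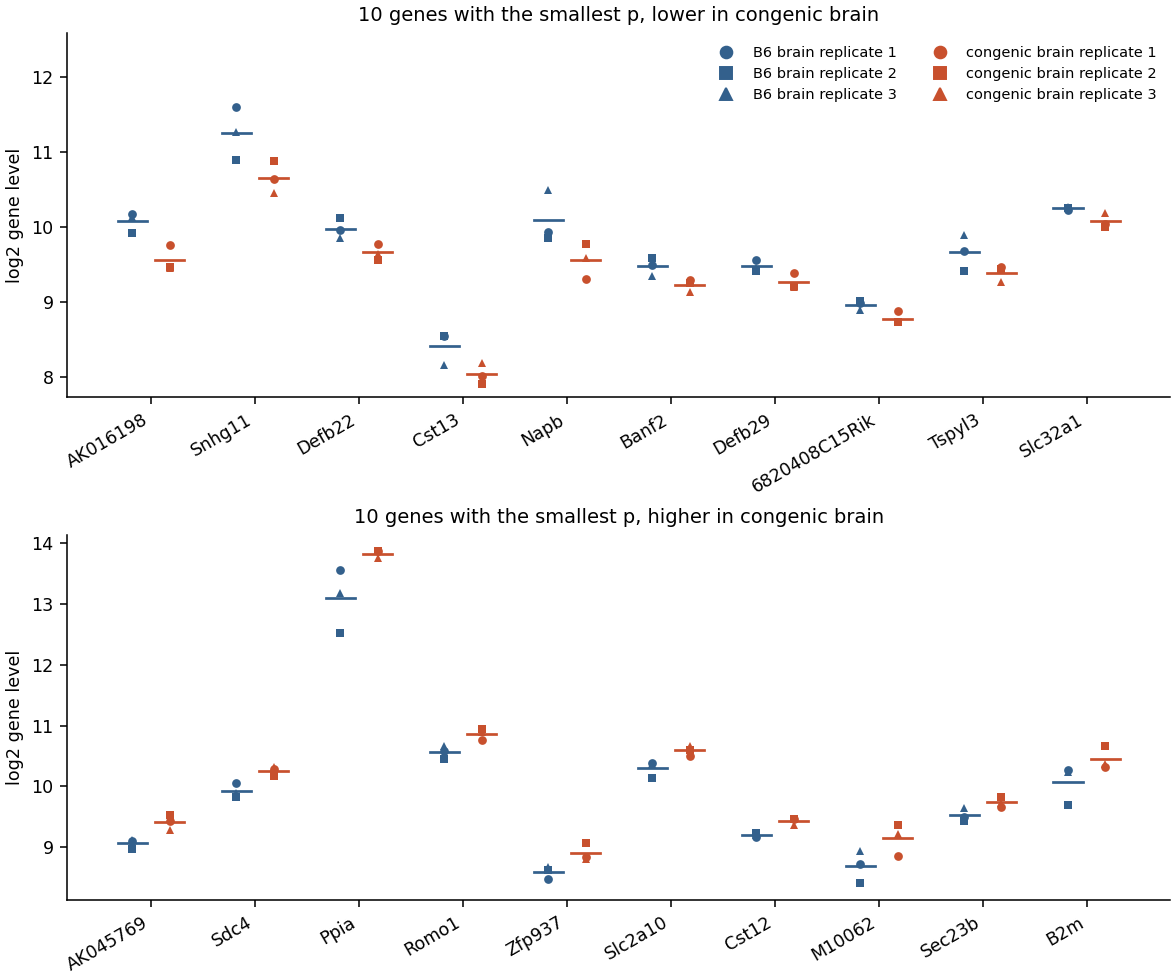
Gene levels (log2) in 3 B6 (blue) and 3 congenic (orange) brain arrays for the 10 genes with the smallest p in each direction, lines at group means. No gene passed the threshold over these 6 arrays. The 20 were picked by their p in these same arrays, and 17 of them have separate groups. Over all genes, 5.28% have all congenic values below all B6 values and 6.74% above. Ppia shows the widest spread among the B6 arrays.

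Whole gene groups stayed close to the middle. Over all genes, 174 had higher and 167 lower congenic means. All congenic values lay below all B6 values for 18 genes (5.28%) and above them for 23 (6.74%). In the 17 measured genes of vesicle traffic and autophagy, 11 had higher and 6 lower means, with Chmp4b, an ESCRT-III subunit, at 0.23 (SE 0.10). In the 14 genes of RNA processing and translation, 8 had higher and 6 lower means, with Esf1, a nucleolar factor of ribosomal RNA processing, at 0.19 (SE 0.09). Of 6 genes on the list for body weight, feeding and growth, 4 had lower means. The largest difference there was that of Lep, the adipocyte hormone leptin, at -0.29 (limma adjusted p = 0.841), a gene off chromosome 2. That list's mean level was 10.16 to 10.21 in B6 and 10.09 to 10.15 in congenic brain, separate by a narrow margin. Among single genes, 5.28% had all congenic values below all B6 values. No gene of the list had an unadjusted p under 0.05, and the list mean was not tested. The median difference per 5 Mb window ran from -0.013 to 0.019 in the 6 windows with 27 or more genes.

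Some features differed from the rest of their own gene. Limma's test of each feature against the other features of its gene passed for 7 of 3072 features (0.228%, with 5.57% at an unadjusted p under 0.05), of which 3 are the Csnk2a1 and Eif2s2 features above. The other 4 were singled out after their values were seen. In Naa20, the catalytic subunit of an N-terminal acetyltransferase, the 122-base feature at bases 145663651 to 145663772 read 7.98, 7.32 and 8.42 in B6 and 6.94, 7.01 and 6.77 in congenic brain. It stood at -1.20 relative to its gene (limma adjusted p = 0.0035), whereas the 92-base feature that starts at the same base differed by -0.35 (SE 0.25). In Rbm39, an RNA-binding splicing factor, the 51-base feature at bases 156240684 to 156240734 read 9.09, 8.63 and 8.47 in B6 and 7.24, 8.03 and 7.58 in congenic brain. It stood at -1.42 relative to its gene (limma adjusted p = 0.0097), although 14 of the gene's 17 features had higher congenic means. These 2 features were lower in the congenic arrays of the other tissues too, by means of -0.50 to -0.92 in Naa20 and -0.83 to -1.06 in Rbm39. In the authors' deposited value table, 1 of the 3 probes of each was higher in congenic brain. Probe differences there ran from -2.03 to 0.27 in Naa20 and from -2.50 to 0.41 in Rbm39.

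In Xrn2, a nuclear exonuclease that degrades RNA from its 5' end, the feature at bases 146801852 to 146801950 read 8.76, 8.66 and 10.75 in B6 and 8.23, 8.24 and 8.33 in congenic brain. B6 replicate 3 was far above the rest, and without it the value relative to the gene moved from -1.32 (limma adjusted p = 0.0035) to -0.65 (limma adjusted p = 0.540). In Acss2, an acetyl-CoA synthetase, the feature at bases 155648398 to 155649073 read 9.83, 12.65 and 10.20 in B6 and 9.92, 9.73 and 9.81 in congenic brain. It overlapped, and without B6 replicate 2 it moved from -1.09 (limma adjusted p = 0.0326) to -0.22. Without congenic replicate 3, none of these 4 passed.

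The 24-array fit called 13 features (0.419%), 4 higher and 9 lower. Beyond the exons of Csnk2a1, Eif2s2, Napb, Snhg11, Naa20 and Rbm39 given above, there were 4, also singled out after their values were seen. Each had no overlap between the groups. Over all features, 5.2% had all congenic values below all B6 values and 6.03% above. Epb41l1, the neuronal membrane skeleton protein 4.1N, had a feature at bases 156592738 to 156592819 that read 7.92, 8.08 and 7.86 in B6 and 7.19, 7.10 and 7.32 in congenic brain, a difference of -0.75 (SE 0.16). Cpne1, a calcium-dependent membrane-binding protein, had one at bases 156141495 to 156141582 with a difference of -0.81 (SE 0.16). Rprd1b, which binds the tail of RNA polymerase II, had one with -0.67 (SE 0.16), and Ncoa3, a nuclear receptor coactivator, had one with 0.61 (SE 0.19). In the fit of the 6 brain arrays their limma adjusted p ran from 0.275 to 0.784.

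The genotype difference in brain was then set against the mean difference in liver, adipose tissue and muscle. It differed for 1 gene of 341 (0.293%) and 8 features of 3099 (0.258%), with 9.38% and 6.62% at an unadjusted p under 0.05. These were Serinc3 with 5 of its features and 3 features of Csnk2a1. Serinc3, a multipass membrane protein named for serine incorporation into lipids, read 10.71, 10.33 and 10.69 in B6 and 10.66, 10.87 and 10.95 in congenic brain, with overlap, a difference of 0.25 (SE 0.12, limma adjusted p = 0.791). In liver, adipose tissue and muscle it was lower in congenic arrays, at -0.49, -0.92 and -0.76. The brain difference was 0.97 above their mean (limma adjusted p = 0.0037). Against liver alone, the tissue on the same slide, it was 0.74 above, with a limma adjusted p of 0.199. For Csnk2a1 the third feature, at bases 152320726 to 152320828, was 0.73 above the other tissues (limma adjusted p = 0.0121). The 2 bright exons passed against liver alone as well.

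**Figure D5:**
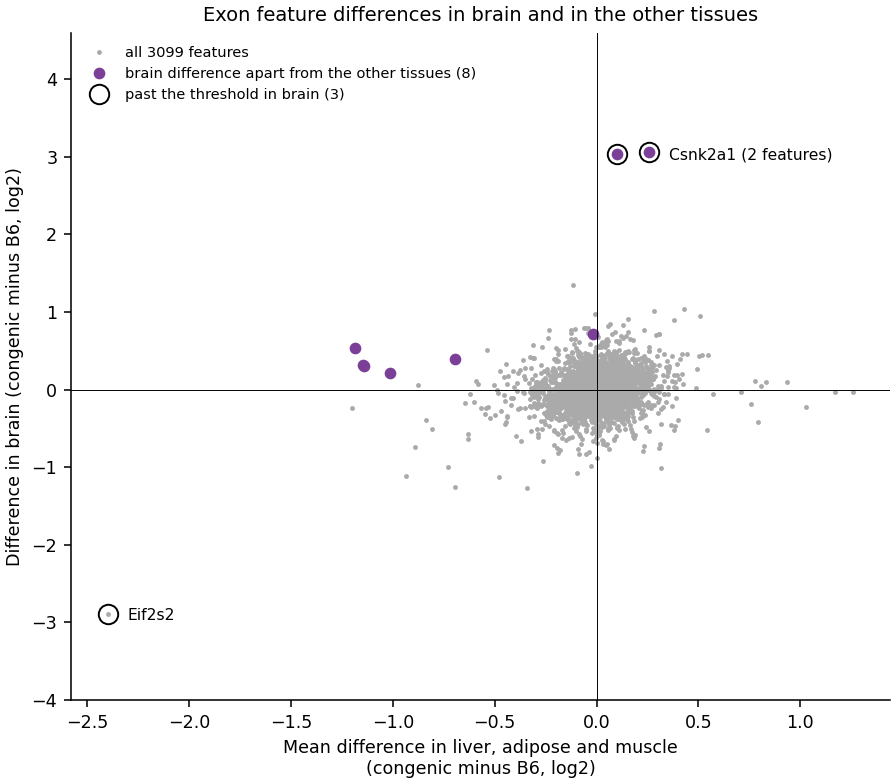
Each point is 1 of 3099 exon features, with the congenic minus B6 difference (log2) in brain on the vertical axis and its mean over liver, adipose tissue and muscle on the horizontal axis. The 2 Csnk2a1 exons stand at about 3 in brain and near 0 elsewhere, while the Eif2s2 feature is at -2.40 elsewhere and -2.89 in brain.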

How the data were processed

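RNA from 24 mouse samples was hybridised as biotin-labelled cRNA to a custom array with 12 wells per slide, and the 6 brain samples lay on slide 1. The deposited files hold scanner intensity per exon on a linear scale, the mean over its 2 to 14 probes, per the file headers. The deposited value table holds the authors' intensity per probe, and the submitters' processing notes name RMA without settings. Its scale is linear with no centring seen, and its link of columns to replicates is unsure: 2 of 6 brain files matched their own column best, 4 another replicate of their group and 0 another group. The exon of each probe in that table was inferred from probe order within a transcript, for 12649 of 13388 probes. Mean log2 values per exon row then correlated at 0.9923 with those of the scanner files.

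Background correction of the 3919 exon rows used normexp (offset 50), followed by quantile normalization over 24 arrays and log2. Rows with the same coordinates in a gene were averaged to features, and median polish gave gene values. Of 523 transcripts, 483 had a symbol (RefSeq GRCm38 symbols, no coordinates taken), and 40 without one were tested under their own name. Tests used limma 3.58.1 in R 4.3.3, two-sided, on the 6 brain arrays, with diffSplice for features within a gene and a 24-array fit for tissue contrasts. The fit was tested on simulated data. Figures used matplotlib 3.10.9.

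Members and gene lists were chosen with earlier results of these data known. Genes named were those past the threshold in the 6-array or 24-array fit, the 10 smallest p in each direction, leading list members and genes off chromosome 2. The 3 arrays per group limit the precision. The design text speaks of biological replicates, and as far as that holds the p-values reflect the spread between animals. Same-numbered samples did not deviate together (correlations of -0.235, -0.443 and 0.182), so numbers were used as names. Alternatives covered background, scaling, summaries, left-out arrays, well rows, the value table and the replicate block.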

Additional observations from a re-analysis of the deposited data

Results flagged for a closer look

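The brain difference departed from the mean of liver, adipose tissue and muscle, by limma's test of the difference itself, in 9 results. For Serinc3 the gene stood 0.97 above the other tissues. Its features stood 1.46 above them at bases 163702514 to 163702676, 1.44 at bases 163700159 to 163700353, 1.72 at bases 163697783 to 163697863, 1.23 at bases 163692475 to 163692566 and 1.09 at bases 163691220 to 163691401. In Serinc3 the brain values overlapped between genotypes at 4 of these 5 features, and the differences in the other tissues were -0.41 to -1.68. For Csnk2a1 the features at bases 152320726 to 152320828, 152322024 to 152322084 and 152326531 to 152326642 stood 0.73, 2.80 and 2.93 above the other tissues. Adipose tissue and muscle were on another slide, so for those the tissue and the slide cannot be told apart. Against liver alone, on the same slide, the 5 Serinc3 features had limma adjusted p of 0.222, 0.084, 0.510, 0.049 and 0.081, in the order above. For the 3 Csnk2a1 features it was 0.0014, 1.4e-05 and 2.3e-04.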

How the results depend on the processing

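The 2 Csnk2a1 exons passed in every alternative that tested them (16 and 17), at 2.08 to 3.59 and 2.06 to 3.49, and the Eif2s2 feature in 16 of 17. No gene passed in any alternative over brain arrays alone, except 1, Ppia, over the 3 arrays of well row C. That row held a lone congenic array, assumed to vary like the B6 arrays. With all 24 arrays 3 genes passed, and without single brain arrays 0 to 3, among them Ppia without B6 replicate 1. The count of 3 features was 2 to 3 without single arrays, 13 with all 24 arrays and 5 to 22 with 24 arrays less 1 (5, 22 and 11 without B6 replicates 1 to 3, and 17, 8 and 7 without congenic replicates 1 to 3). It was 5 with well row as a block, in well row C alone, in the value table and with each exon row alone. The 7 features apart from their gene became 12 with all 24 arrays and 3 to 18 without single arrays, with 3 without congenic replicate 3, 14 without B6 replicate 3 and 18 without congenic replicate 1. Against liver alone, 0 genes and 5 features differed from brain, and without single arrays 1 to 2 and 7 to 10. With the replicate block, 0 genes and 3 features passed in brain, 4 features stood apart from their gene, and 0 genes and 5 features differed from the other tissues. The block changed no other call. The causes were not tested. The 24-array fits without single arrays and the tests of single exon rows were chosen after seeing the data. Single values kept their direction and side of the threshold in 2061 alternatives, 54 gained and 30 lost a call, 146 values that passed no threshold changed sign, and no called value did. Raw intensities of brain arrays were low, which limits features near the bottom of the range.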
